A study of Mus musculus with 6 samples.

Results

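The TNF receptor superfamily is a family of cell surface receptors through which T cells receive costimulatory, inflammatory or death signals. Of the 49315 genes in the count table, 28 were listed as members of the family, and 10 of these are described here as the receptors named for Treg expression: Tnfrsf4, Tnfrsf9, Tnfrsf18, Tnfrsf1b, Tnfrsf1a, Tnfrsf25, Tnfrsf14, Cd27, Fas and Ltbr. They were found by matching Ensembl identifiers to gene symbols of the GENCODE M21 annotation (mouse build GRCm38), and their values were compared between regulatory T cells (Tregs) of the skin and of the skin-draining lymph nodes (SDLNs). The study used the comparison to ask how Tregs might affect PPARγ activity in the hair follicle. Its text names IL10 and TNFSF9 as preferentially expressed by skin Tregs, while a figure caption names Il10 and Tnfrsf9 as higher there.

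All 6 libraries came from neonatal (P9) mice of both sexes on a C57BL/6J background carrying the Foxp3-GFP reporter, in which green fluorescent protein marks cells that express Foxp3, the transcription factor that defines Tregs. No animal was treated, and the genotype was shared by both groups. Skin was digested with enzymes, CD45+ cells were enriched on magnetic beads, and live CD45+ CD4+ Foxp3-EGFP+ cells were sorted into lysis reagent, with several mice pooled into each sample. Skin Tregs and SDLN Tregs had 3 libraries each, all given batch 1 in the labels, and the groups came from the sample titles because the tissue field reads skin for the lymph node samples too.

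Receptors of this family are bound by ligands of the TNF superfamily, most of which are trimers held on the surface of a neighbouring cell. One group of receptors, among them OX40, 4-1BB, GITR, CD27 and TNFR2, has no death domain, recruits TRAF adaptor proteins to its tail and signals to NF-kB, the transcription factor of survival and activation genes. Another group, among them Fas, TNFR1 and DR3, carries a death domain that can recruit FADD or TRADD and lead to caspase activation or to NF-kB. Tregs are known for high surface levels of OX40, GITR and TNFR2, and 4-1BB rises on T cells after activation through the antigen receptor.

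Total counts were 3748669, 11741784 and 9033442 in skin libraries A to C, and 116158706, 72799278 and 47243498 in SDLN libraries A to C. Values are given as CPM, counts-per-million of all counts in a library. A count of 0 allows up to 3 counts, so genes with no more than 3 counts are described as at the floor, which stood at 0.255 to 0.800 CPM in skin and 0.0258 to 0.0635 CPM in SDLN libraries. No molecular identifiers were described, so floors and counting intervals cover counting error only. The skin libraries held fewer genes over the floor, from 2911 to 5902 against 17584 to 19318 in SDLN libraries.

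The sort markers set the skin libraries apart from each other. Foxp3 had 0, 330 and 1 counts in skin libraries A to C against 12208, 10133 and 1788 in SDLN libraries A to C, and Cd4 had 0, 1861 and 2 counts against 54756, 39115 and 14288. Skin Tregs A and C thus held neither defining marker over the floor, which goes against their label, while 9 of 12 Treg and T cell markers in A and 10 of 12 in C were over it. The summed level of those markers was 7774, 11038 and 9384 CPM in skin against 10742 to 11110 CPM in SDLN Tregs. Markers of myeloid cells (macrophages and dendritic cells) summed to 63224, 39937 and 35326 CPM in skin against 446 to 781 CPM in SDLN Tregs. Of those markers, 18 of 20 were called higher in skin and Itgam had 0 counts in all 3 skin libraries. Results below are also given for skin Tregs B alone against the SDLN libraries where that changed a call, a comparison added after the data were seen, in which all spread comes from the SDLN libraries, so that its calls carry none between skin libraries.

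Of the 10 receptors, 9 passed the filter on low counts, and the edgeR quasi-likelihood test called 3 of them lower and 0 higher in skin at an adjusted p under 0.05 (Tnfrsf1a, Tnfrsf25 and Tnfrsf14). The other 6 were not called, 3 of the 9 had an unadjusted p under 0.05, and no receptor was called higher by DESeq2 or limma voom. Over all 13572 genes tested, 45.3% were called lower in skin and 1.04% higher. All 3 receptors called lower were at the floor in every skin library, as were 94.4% of all genes called lower. With skin Tregs B alone, 1 of 10 receptors was called higher (Tnfrsf9) and 4 lower (the same 3 and Fas), beside 10.6% and 46.0% of all genes tested there. The skin libraries varied more than the SDLN libraries in Tnfrsf9 and Fas, as given below, and these calls do not include that spread. In bulk RNA, fewer cells of a type and less RNA per cell cannot be told apart.

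Each of the same 3 receptors lay lower in every skin library than in every SDLN library, and 53.6% of all genes tested did so. None of the 10 lay higher in every skin library. The share of all genes that did so was not counted, and 1.04% of the genes tested were called higher in skin. The number of receptors over the floor was 4, 5 and 6 in skin libraries A to C against 10, 10 and 9 in SDLN libraries A to C (5.0 ± 1.0 against 9.67 ± 0.577, SD, n = 3 each). The difference of -4.67 had an exact two-sided permutation p of 0.10, the smallest that 3 against 3 libraries allow. Over all genes of the count table, 2911, 5902 and 5187 were over the floor in skin libraries A to C. In SDLN libraries A to C these numbers were 17698, 19318 and 17584, so the lower number in skin was not particular to the receptors. When each library was drawn down to the smallest total, the skin numbers ranged from 4 to 6 and the SDLN numbers from 8 to 9.

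**Figure D1:**
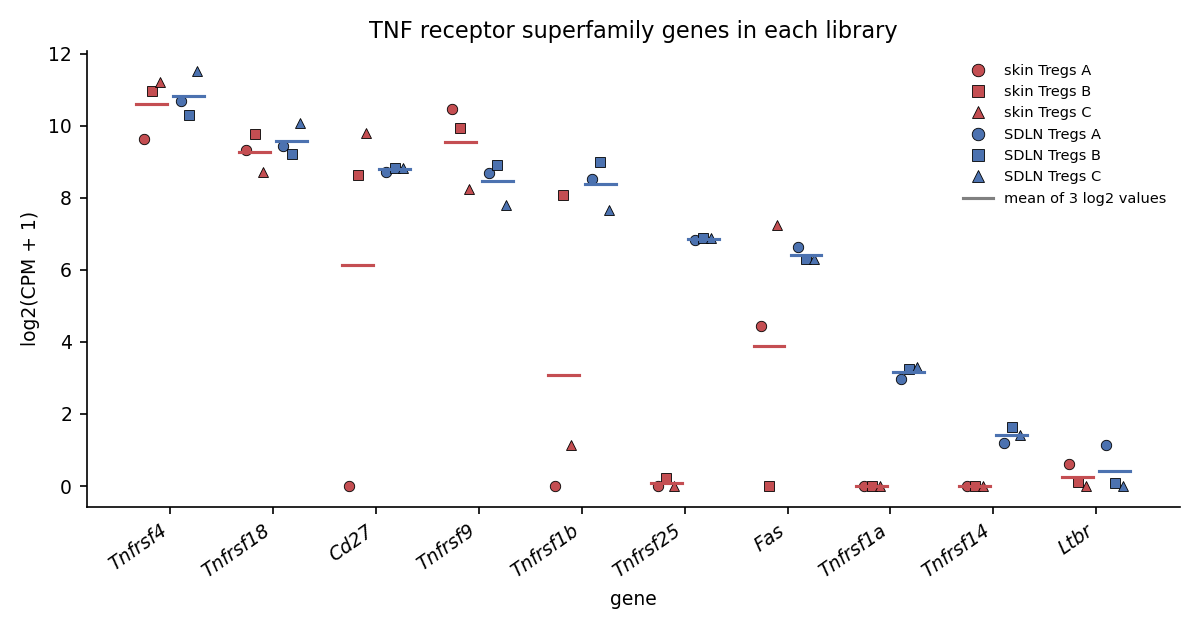
Level of each of the 10 receptors as log2(CPM + 1) on the vertical axis, with genes ordered by their mean in SDLN Tregs, skin libraries in red, SDLN libraries in blue and a bar at the mean of 3 log2 values. Tnfrsf4, Tnfrsf18 and Tnfrsf9 were over the floor in all 6 libraries, while Cd27, Tnfrsf1b and Fas were near the SDLN level in some skin libraries and at or near 0 in others.

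The summed level of the 10 receptors was 2863, 4524 and 4140 CPM in skin libraries A to C and 3756, 3488 and 5072 CPM in SDLN libraries A to C (3842 ± 870 against 4105 ± 848 CPM, SD, n = 3 each). The groups overlapped and the exact permutation p was 0.80. Over the 7 per-library measures compared in this way, adjusted p was 0.35 at the smallest. Tnfrsf4, Tnfrsf9 and Tnfrsf18 together made up 99.3%, 85.3% and 75.0% of that sum in skin libraries A to C, against 73.3%, 66.7% and 83.0% in SDLN libraries A to C (exact permutation p = 0.20).

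Per kilobase of merged exon length, which allows levels of different genes to be compared, Tnfrsf4 had the highest mean level of the 10 receptors in SDLN Tregs, at 1416 ± 632 CPM per kb (SD, n = 3). Tnfrsf18 followed at 521 ± 169, Cd27 at 189 ± 8.4, Tnfrsf9 at 136 ± 49.2 and Tnfrsf1b at 93.5 ± 40.3 CPM per kb. Tnfrsf25 (50.6 ± 1.37) and Fas (41.2 ± 5.8) came next, then Tnfrsf1a at 3.12 ± 0.41 and Tnfrsf14 at 1.17 ± 0.28, and Ltbr had 0.18 CPM per kb. Tnfrsf9 and Tnfrsf1b were the only neighbours in that order whose SDLN values overlapped. In skin Tregs the order of means was Tnfrsf4 (1265 ± 612 CPM per kb), Tnfrsf18 (420 ± 146), Tnfrsf9 (331 ± 207), Cd27 (183), Fas (27.8) and Tnfrsf1b (23.6), and all neighbours in it overlapped except Tnfrsf4 and Tnfrsf18. By a minimum mean of 10 CPM in either tissue, 7 of the 10 were expressed, and Tnfrsf1a, Tnfrsf14 and Ltbr were not.

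Tnfrsf4 encodes OX40, a costimulatory receptor without a death domain that binds OX40 ligand. The gene (ENSMUSG00000029075) lies on chromosome 4 at 156013843-156016612, plus strand, in 7 merged exons of 1365 bp. It had 2947, 23617 and 21509 counts in skin libraries A to C, or 786, 2011 and 2381 CPM. In SDLN libraries A to C it had 191083, 90988 and 137147 counts, or 1645, 1250 and 2903 CPM.

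Skin Tregs A was the lowest of the 6 libraries for Tnfrsf4 and SDLN Tregs C the highest, while skin Tregs B and C lay above SDLN Tregs A and B, so that the groups overlapped. The means were 1726 ± 835 CPM in skin and 1933 ± 863 CPM in SDLN Tregs (SD, n = 3 each). The log2 fold change was -0.07 (SE 0.69, 95% interval -1.77 to 1.64, adjusted p = 0.980 with edgeR). It was called under 0 of 15 alternatives, and its sign turned with limma voom, without skin Tregs A, without SDLN Tregs C and with skin Tregs B alone.

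Tnfrsf18 encodes GITR, a second costimulatory receptor without a death domain, and is the nearest gene of the family to Tnfrsf4, with 9551 bp between them. The gene (ENSMUSG00000041954) lies on chromosome 4 at 156026164-156028895, plus strand, with 1524 bp of exon. Its counts were 2384, 10148 and 3801 in skin libraries A to C (636, 864 and 421 CPM). The SDLN libraries A to C had 81060, 43424 and 51291 (698, 596 and 1086 CPM).

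The 2 groups overlapped for Tnfrsf18, with skin Tregs C the lowest library and SDLN Tregs C the highest. Means over libraries were 640 ± 222 and 793 ± 258 CPM (SD, n = 3 each), and the log2 fold change was -0.37 (SE 0.47, 95% interval -1.53 to 0.80, adjusted p = 0.714 with edgeR). It was called under 0 of 15 alternatives, and its sign turned with skin Tregs B alone, at 0.15. An antisense gene, Gm16008, overlaps 414 bp of its exons and had 0 counts in skin and 279 to 674 in SDLN libraries. The strand setting of the counting was not given, so that overlap leaves part of the Tnfrsf18 count uncertain.

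Tnfrsf9 encodes 4-1BB (CD137), a costimulatory receptor induced on activated T cells. The gene (ENSMUSG00000028965) lies on chromosome 4 at 150914562-150946102, plus strand, with 2722 bp of exon. It had 5320, 11565 and 2731 counts in skin libraries A to C, or 1419, 985 and 302 CPM. In SDLN libraries A to C it had 47770, 34995 and 10477 counts, or 411, 481 and 222 CPM.

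Skin Tregs A and B lay above all 3 SDLN libraries for Tnfrsf9, while skin Tregs C lay within their range. The means were 902 ± 563 CPM in skin and 371 ± 134 CPM in SDLN Tregs (SD, n = 3 each). The log2 fold change was 1.13 (SE 0.55, 95% interval -0.23 to 2.48), with an adjusted p of 0.177 in edgeR, so the higher mean was not beyond the spread of these libraries. With skin Tregs B alone it was 1.48 and was called (adjusted p = 0.0189, with no spread between skin libraries), the only 1 of 15 alternatives to call it, and adjusted p ranged from 0.0189 to 0.555 over them. Of 18 listed genes that respond to tissue digestion, 9 were called higher in skin (Fos and Hspa1a among them), 0 lower and 9 not called. Over all genes tested, 1.04% were called higher. Together the 18 genes summed to 37550, 21634 and 14093 CPM in skin libraries A to C and to 4201 to 4491 CPM in SDLN Tregs. Tnfrsf9 and the summed myeloid markers were likewise highest in skin Tregs A and lowest in skin Tregs C among the skin libraries, and the part of either in the Tnfrsf9 level was not tested.

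**Figure D2:**
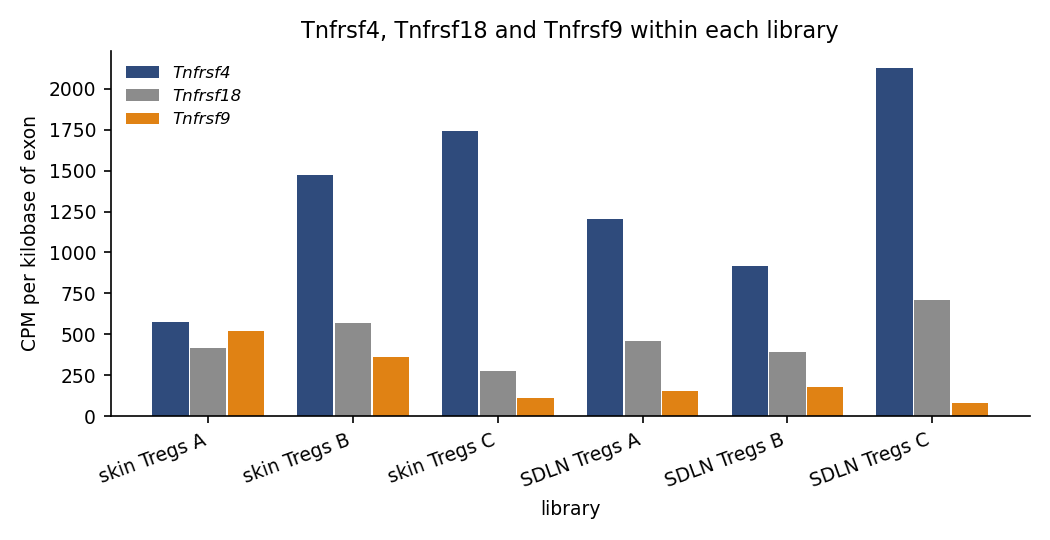
Level of Tnfrsf4, Tnfrsf18 and Tnfrsf9 in CPM per kilobase of exon (vertical axis) in each of the 6 libraries, 1 bar per gene and library. Tnfrsf9 exceeded Tnfrsf18 in skin Tregs A, at 521 against 417 CPM per kb, and lay below it in the other 5 libraries.

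The balance between these 3 receptors differed between skin libraries. The ratio of Tnfrsf4 to Tnfrsf18 per kilobase was 1.38, 2.60 and 6.32 in skin libraries A to C, against 2.63, 2.34 and 2.99 in SDLN libraries A to C (exact permutation p = 0.90). The ratio of Tnfrsf9 to Tnfrsf18 was 1.25, 0.638 and 0.402 in skin against 0.330, 0.451 and 0.114 in SDLN Tregs (exact permutation p = 0.20). The ratio of Tnfrsf9 to Tnfrsf4 was 0.905, 0.246 and 0.0637 against 0.125, 0.193 and 0.0383 (exact permutation p = 0.40). All 3 ratios overlapped between the tissues.

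For the receptors found in every library, sequence upstream of their annotated starts is shown with that of Tnfrsf25, the most abundant receptor that was at the floor in every skin library. The sequences are from RefSeq (build GRCm38.p6), whose table of 300-base windows held at least 1 window for 10 of the 10 genes. Each is the last stretch of at most 100 bases of the window, read 5′ to 3′ on the plus strand, that lies before the start and outside annotated exons. The exception is the second start of Tnfrsf9, where a short site from 47 to 29 bases before the start is shown. That site lies within annotated exon sequence, as the last base outside exons before that start is chr4:150927917. Capitals mark a motif.
Tnfrsf4, chr4:156013611-156013694: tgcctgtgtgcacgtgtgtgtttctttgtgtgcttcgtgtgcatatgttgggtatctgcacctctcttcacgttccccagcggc
Tnfrsf18, chr4:156026072-156026163: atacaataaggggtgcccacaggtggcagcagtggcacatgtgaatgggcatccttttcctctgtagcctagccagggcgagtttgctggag
Tnfrsf9, first start, chr4:150920055-150920154: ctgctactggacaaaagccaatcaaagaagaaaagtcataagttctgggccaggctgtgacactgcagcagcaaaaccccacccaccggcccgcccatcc
Tnfrsf9, second start, chr4:150927952-150927970: agctGGGGATTTCCCagga
Tnfrsf25, first start, chr4:152115834-152115933: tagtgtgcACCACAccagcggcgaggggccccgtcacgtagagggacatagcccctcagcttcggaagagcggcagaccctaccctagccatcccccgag

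The windows were searched on both strands for the NF-kB consensus, the AP-1 site TGANTCA, the RUNX site TGTGGT and the TATA box TATAAA. The NF-kB consensus was found in 1 receptor alone, in the Tnfrsf9 window of the second start, where 2 overlapping matches cover bases 43 to 33 before the start (capitals above). That window also held an AP-1 match 15 to 9 bases before the start and a RUNX match after it. Its NF-kB and AP-1 matches both lie within annotated exon sequence. The NF-kB consensus occurs in 4.51% of all 32851 promoter windows of the same length, the AP-1 site in 7.81%, the RUNX site in 16.8% and the TATA box, found in none of the receptor windows, in 13.6%. Tnfrsf25 held the RUNX match in capitals, on the minus strand, and Fas an AP-1 match 211 to 205 bases before its start. A match is a description of these letters, and binding was not measured here.

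Tnfrsf1b encodes TNFR2, the TNF receptor without a death domain that is characteristic of Tregs. The gene (ENSMUSG00000028599) lies on chromosome 4 at 145213463-145246870, minus strand, with 3818 bp of exon. It had 0, 3154 and 11 counts in skin libraries A to C (0, 269 and 1.22 CPM). The SDLN libraries A to C had 42261, 36946 and 9452 counts (364, 508 and 200 CPM).

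Skin Tregs B, the skin library with Foxp3 and Cd4, lay within the SDLN range for Tnfrsf1b, and skin Tregs A and C lay far below it. Mean levels were 89.9 ± 155 and 357 ± 154 CPM (SD, n = 3 each), and the log2 fold change was -1.90 (SE 2.49, 95% interval -8.09 to 4.28, adjusted p = 0.721 with edgeR). Skin Tregs B held all but 11 of its skin counts, so that leaving it out fixes a lower value and adds no support (-8.82, adjusted p = 0.0336), while limma voom, which weights libraries by quality, gave -6.83 (adjusted p = 0.0342). Adjusted p ranged from 0.0336 to 0.931 over its 14 alternatives.

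Cd27 encodes the costimulatory receptor that binds CD70 and lacks a death domain. The gene (ENSMUSG00000030336) lies on chromosome 6 at 125232622-125237010, minus strand, with 2328 bp of exon. It had 0, 4637 and 7977 counts in skin libraries A to C (0, 395 and 883 CPM). In SDLN libraries A to C it had 48587, 32634 and 21509 counts (418, 448 and 455 CPM).

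Skin Tregs C held the highest Cd27 level of the 6 libraries and skin Tregs A none, while the SDLN libraries lay close together. The means were 426 ± 442 CPM in skin and 441 ± 19.7 CPM in SDLN Tregs (SD, n = 3 each). The log2 fold change was 0.20 (SE 2.13, 95% interval -5.07 to 5.47, adjusted p = 0.981 with edgeR). Its sign turned under 5 of 14 alternatives: library size only, limma voom, without skin Tregs C, skin Tregs B alone, and the column letter as a block.

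Fas encodes the death receptor that binds Fas ligand and recruits FADD and caspase-8. The gene (ENSMUSG00000024778) lies on chromosome 19 at 34290666-34327772, plus strand, with 2062 bp of exon. It had 78, 0 and 1365 counts in skin libraries A to C (20.8, 0 and 151 CPM). The SDLN libraries A to C had 11461, 5703 and 3669 counts (98.7, 78.3 and 77.7 CPM).

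Skin Tregs C lay above all SDLN libraries for Fas and skin Tregs A and B below them. Mean levels stood at 57.3 ± 81.9 and 84.9 ± 11.9 CPM (SD, n = 3 each), and the log2 fold change was -0.32 (SE 2.38, 95% interval -6.22 to 5.59, adjusted p = 0.971 with edgeR). With skin Tregs B alone, where Fas had 0 counts, it was called lower in skin (adjusted p = 0.000131). Without skin Tregs B the sign turned, at 0.26. Tnfrsf1b and Cd27 were thus over the floor in skin Tregs B and C and Fas in skin Tregs A and C, so that skin Tregs C alone held all 3.

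Tnfrsf25 encodes DR3, the death domain receptor for TL1A, which is known to expand Tregs. The gene (ENSMUSG00000024793) lies on chromosome 4 at 152115934-152120119, plus strand, with 2277 bp of exon. It had 0, 2 and 0 counts in skin libraries A to C. In SDLN libraries A to C it had 12979, 8455 and 5564 counts, or 112, 116 and 118 CPM (115 ± 3.12, SD, n = 3).

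Every skin library was at the floor for Tnfrsf25 and the SDLN libraries lay within a narrow range. It was called lower in skin (adjusted p = 0.0110 with edgeR), and under 13 of 14 alternatives, skin Tregs B alone included (adjusted p at most 0.0749). Over the pooled counts, the ratio of SDLN to skin CPM was 1402, with a 95% counting interval of 388 to 11574. Of the 1760 genes at 100 to 300 CPM in SDLN Tregs, 149 (8.47%) were likewise at the floor in all 3 skin libraries, while 77.3% were over it in skin Tregs B.

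Tnfrsf1a encodes TNFR1, the widely expressed death domain receptor for TNF. The gene (ENSMUSG00000030341) lies on chromosome 6 at 125349362-125362484, plus strand, with 2591 bp of exon. It had 0 counts in all 3 skin libraries and 801, 613 and 423 counts in SDLN libraries A to C, or 6.90, 8.42 and 8.95 CPM (8.09 ± 1.07, SD, n = 3). It was called lower in skin (adjusted p = 0.00322 with edgeR), at least 63.6-fold by the floor of 3 counts over the 3 skin libraries together.

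Tnfrsf14 encodes HVEM, which binds LIGHT and the inhibitory receptor BTLA. The gene (ENSMUSG00000042333) lies on chromosome 4 at 154921933-154928563, minus strand, with 1438 bp of exon. It had 0 counts in all 3 skin libraries and 150, 152 and 79 counts in SDLN libraries A to C (1.68 ± 0.398 CPM, SD, n = 3). It was called lower in skin (adjusted p = 0.00384 with edgeR), at least 13.2-fold by the same floor. At the level of Tnfrsf1a and Tnfrsf14, 1 to 10 CPM in SDLN Tregs, 69.2% of 4027 genes stayed at the floor in the 3 skin libraries, so most genes of that level were likewise undetected there.

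Ltbr encodes the lymphotoxin beta receptor, known from stromal and myeloid cells rather than from T cells. The gene (ENSMUSG00000030339) lies on chromosome 6 at 125306571-125313885, minus strand. It had 2, 1 and 0 counts in skin libraries A to C and 141, 5 and 0 counts in SDLN libraries A to C. It did not pass the filter and was not tested, and it was over the floor in SDLN Tregs A and B only. Its low count stood beside summed myeloid markers of 35326 to 63224 CPM in the skin libraries.

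**Figure D3:**
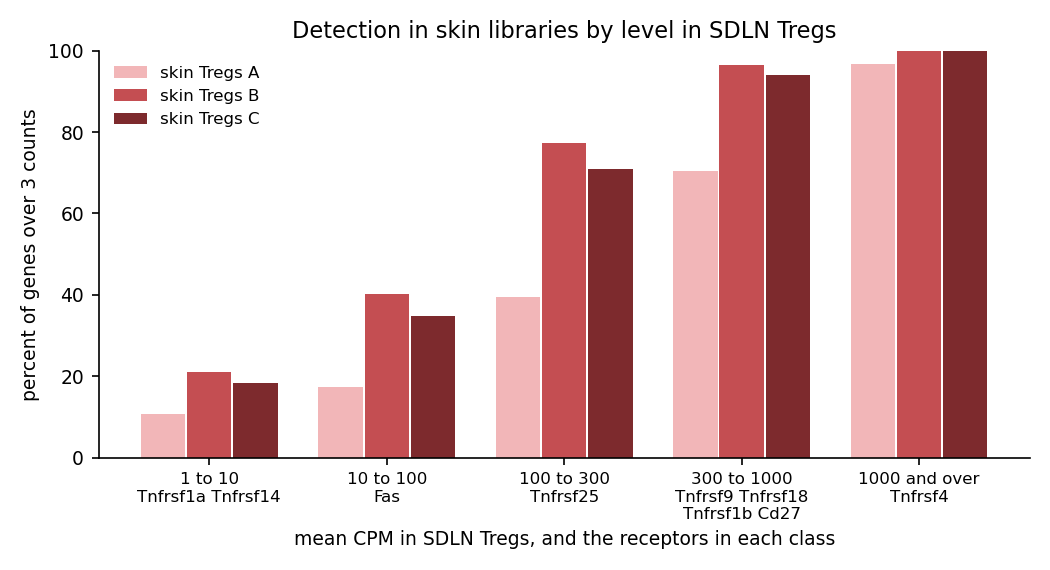
Percent of all genes with over 3 counts in each skin library (vertical axis), by the mean CPM of the gene in SDLN Tregs (horizontal axis), with the receptors of each class named below it. Of the 485 genes at 300 to 1000 CPM, 70.5% were over the floor in skin Tregs A, which lacked Tnfrsf1b and Cd27 of that class, and Ltbr lies below the lowest class.

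Detection in skin followed the SDLN level across all genes, and the receptors can be read against it. Tnfrsf4 was among 91 genes at 1000 CPM or more, of which 96.7% were over the floor in all 3 skin libraries. Of the 485 genes at 300 to 1000 CPM, which hold Tnfrsf9, Tnfrsf18, Tnfrsf1b and Cd27, 67.2% were over the floor in all 3. Tnfrsf9 and Tnfrsf18 were so, and Tnfrsf1b and Cd27 were not. Fas was among 6329 genes at 10 to 100 CPM, of which 6.86% were over the floor in all 3 skin libraries and 40.5% in none. Over the 1623 tested genes over the floor in every library, the median log2 fold change was 0.28, against -2.21 over all genes tested, so the values of Tnfrsf4 (-0.07) and Tnfrsf18 (-0.37) lay below that median and that of Tnfrsf9 (1.13) above it.

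Of the other 18 genes of the family, 7 reached a mean of 10 CPM in either tissue. The test took 11 of the 18, and called 0 higher and 8 lower in skin, all 8 of them at the floor in every skin library. An unadjusted p under 0.05 was reached by 9, and DESeq2 and limma voom each called 1 gene higher. The share called lower over all genes was 45.3%, as above. Tnfrsf13b, which encodes TACI, a receptor for BAFF and APRIL known from B cells, had 0, 139 and 895 CPM in skin libraries A to C against 214, 230 and 286 CPM in SDLN libraries A to C (log2 fold change 0.79, SE 2.22, adjusted p = 0.906 with edgeR). The 6 B cell markers summed to 0, 0 and 2.66 CPM in those skin libraries and to 61.0 to 91.4 CPM in SDLN Tregs, and their part in the Tnfrsf13b level was not tested.

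Tnfrsf10b, the mouse receptor for the death ligand TRAIL, had 240, 5.62 and 184 CPM in skin libraries A to C against 6.15, 8.50 and 5.08 CPM in SDLN libraries A to C. It was high in the 2 skin libraries without Foxp3 and at the SDLN level in skin Tregs B. Its log2 fold change was 4.38 (SE 1.73, adjusted p = 0.0962 with edgeR), and it was called by DESeq2 (adjusted p = 0.00104), by limma voom (adjusted p = 0.0412) and without skin Tregs B (adjusted p = 0.00955). With skin Tregs B alone the sign turned, at -0.16 (adjusted p = 0.777).

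Tnfrsf26 had 0, 0.0852 and 0 CPM in skin libraries A to C against 146, 89.8 and 251 CPM in SDLN libraries A to C, and Tnfrsf8, which encodes CD30, had 0, 0 and 0.332 CPM against 19.2, 37.2 and 26.6 CPM. Both were called lower in skin (adjusted p = 0.00655 and 0.0142 with edgeR). Tnfrsf26 overlaps an antisense gene over 107 bp of exon. Tnfrsf13c, the BAFF receptor, and Tnfrsf22, a TRAIL receptor without a death domain, had 0 counts in skin and 13.5 ± 3.32 and 11.6 ± 2.74 CPM in SDLN Tregs (SD, n = 3), and were also called lower (adjusted p = 0.00322 each with edgeR). Relt had 0.267, 77.8 and 0 CPM in skin against 36.4, 37.3 and 19.0 CPM in SDLN Tregs and was not called (adjusted p = 0.985 with edgeR). Set alone against SDLN Tregs, skin Tregs B gave it a log2 fold change of 1.40 and a call higher (adjusted p = 0.0235), the 1 such call among the 12 of these genes tested there, beside 10.6% of all genes. Limma voom called it lower (-6.05, adjusted p = 0.0380). Leaving out skin Tregs B, its only skin library over the floor, fixes a lower value and adds no support (-8.49, adjusted p = 0.00572).

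**Figure D4:**
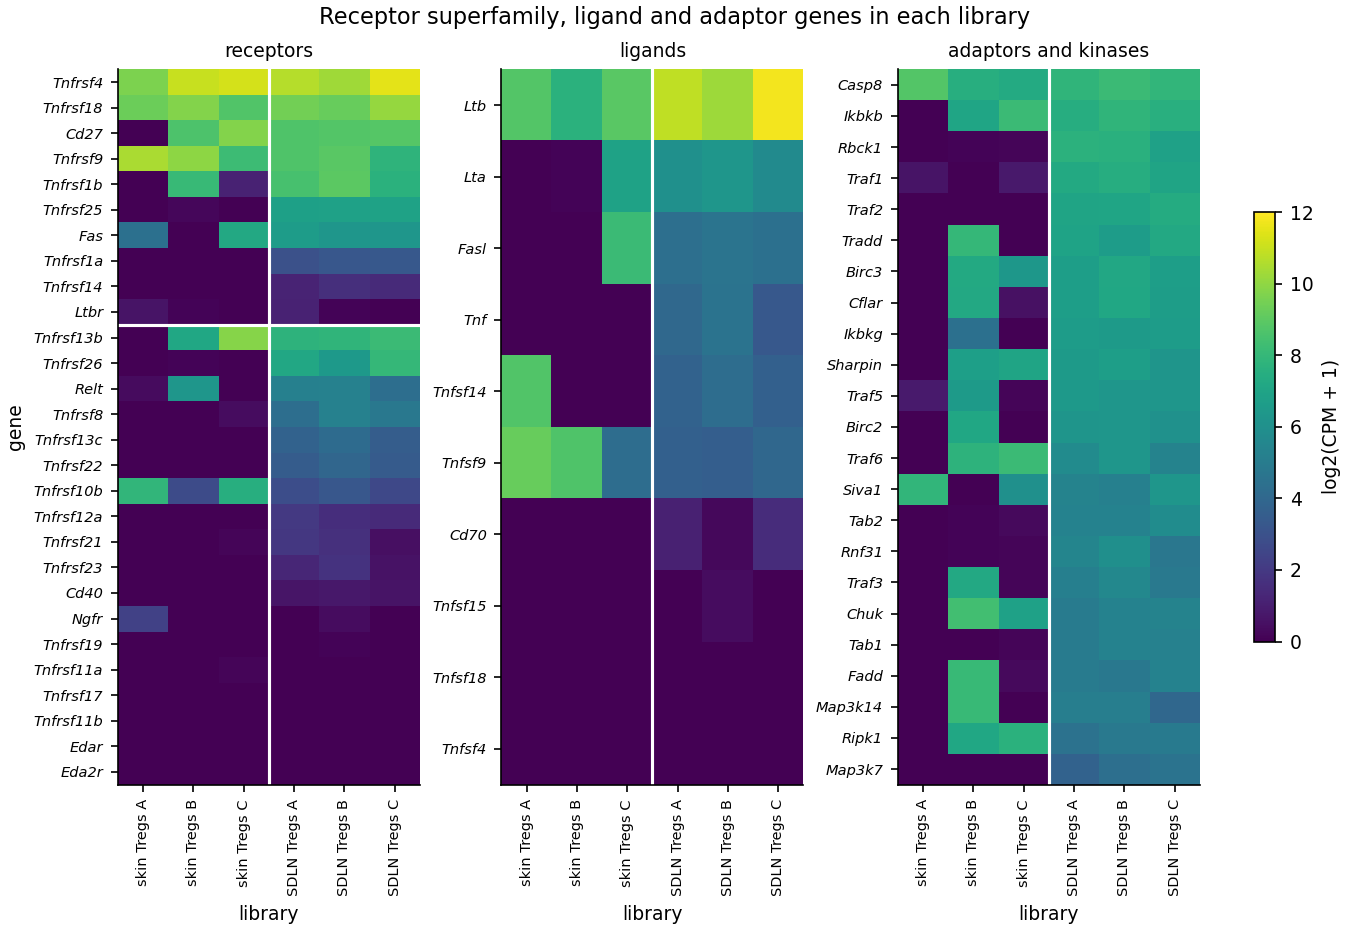
Level of each gene as log2(CPM + 1), by colour, in the 6 libraries (columns), for the receptors (the 10 described above the white line and the other 18 below it), the ligands and the adaptors and kinases, each ordered by the SDLN mean. The adaptor genes over the floor numbered 2, 15 and 10 in skin libraries A to C and 23 in each SDLN library.

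The ligands of the 10 receptors were measured in the same libraries. Of 10 ligand genes, 6 were tested, and 1 was called higher and 2 lower in skin, beside the 1.04% and 45.3% of all genes. Tnfsf4 (OX40 ligand), Tnfsf18 (GITR ligand), Tnfsf15 (TL1A) and Cd70 had 0 counts in all 3 skin libraries and means of at most 1.07 CPM in SDLN Tregs. Of these, Cd70, the ligand of CD27, had 130, 13 and 90 counts in SDLN libraries A to C and lay over the floor in all of them.

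Tnfsf9, the ligand of 4-1BB, had 2224, 4920 and 166 counts in skin libraries A to C, or 593, 419 and 18.4 CPM. The SDLN libraries A to C had 1362, 796 and 704 counts, or 11.7, 10.9 and 14.9 CPM. Every skin library lay above every SDLN library, skin Tregs C only slightly.

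The means of Tnfsf9 were 344 ± 295 and 12.5 ± 2.10 CPM (SD, n = 3 each), and the log2 fold change was 4.53 (SE 1.39, 95% interval 1.10 to 7.96, adjusted p = 0.0400 with edgeR). It was called under 6 of 15 alternatives, with adjusted p from 0.000104 to 0.465. It was 5.10 with skin Tregs B alone and was called. It was not called without skin Tregs A (adjusted p = 0.0710), without skin Tregs B (0.0723), or without SDLN Tregs A, B or C (0.153, 0.145 and 0.129). The ratio of Tnfsf9 to Tnfrsf9 CPM was 0.418, 0.425 and 0.0608 in skin libraries A to C against 0.0285, 0.0227 and 0.0672 in SDLN libraries A to C (exact permutation p = 0.20). The summed myeloid markers and digestion genes given above were higher in the same libraries, and their part in the Tnfsf9 level was not tested.

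**Figure D5:**
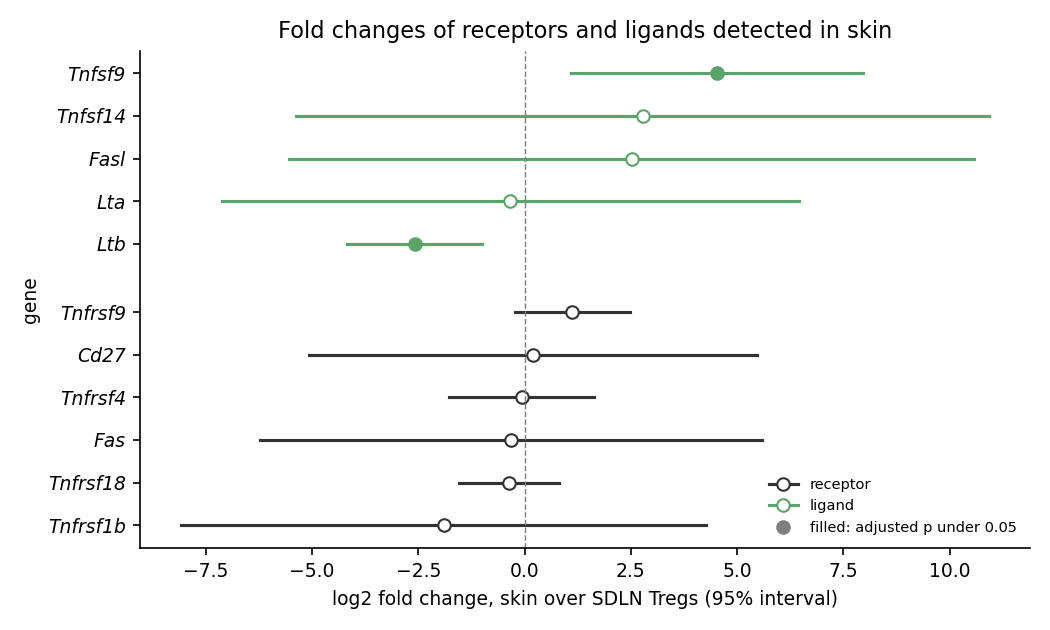
Log2 fold change of skin over SDLN Tregs with its 95% interval (horizontal axis) for the 6 receptors and 5 ligands that were tested and over the floor in at least 1 skin library, with filled points for those called. The intervals of all 6 receptors include 0, and those of Tnfsf9 and Ltb do not.

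Ltb, which encodes lymphotoxin beta, a ligand of Ltbr, had 436, 205 and 480 CPM in skin libraries A to C against 1842, 1197 and 3526 CPM in SDLN libraries A to C. None of the skin libraries reached the lowest SDLN value. The log2 fold change was -2.58 (SE 0.64, 95% interval -4.17 to -0.996, adjusted p = 0.0185 with edgeR), and it was called under 12 of 15 alternatives. It was not called with limma voom (adjusted p = 0.551), with no filter on low counts (0.0634) or without skin Tregs B (0.0563).

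Tnf, the ligand of both TNF receptors, had 0 counts in every skin library and 15.4, 23.1 and 8.81 CPM in SDLN libraries A to C, and was called lower (adjusted p = 0.00344 with edgeR). Lta, Tnfsf14 and Fasl were each over the floor in 1 skin library and not called. In skin Tregs B they had 1, 0 and 0 counts, and with that library alone their log2 fold changes were -9.47, -12.8 and -13.4. Counts at the floor in skin Tregs B fix a lower value there, so that fit adds no support. Each was at the floor in the 2 skin libraries other than the 1 that held it. Leaving out the library that held it thus also fixes a lower value and adds no support (adjusted p with edgeR = 0.00555 for Lta and 0.00418 for Fasl without skin Tregs C, and 0.00581 for Tnfsf14 without skin Tregs A). Lta had 120 CPM in skin Tregs C against 52.3 to 77.9 CPM in SDLN Tregs. Fasl, the ligand of Fas, had 290 CPM in skin Tregs C, the skin library with the highest Fas level, and 19.9 to 23.4 CPM in SDLN Tregs. Tnfsf14, which encodes LIGHT, a ligand of HVEM and Ltbr, had 421 CPM in skin Tregs A and at most 18.7 CPM in SDLN Tregs.

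The adaptors, ubiquitin ligases and kinases that carry the signal from these receptors were all expressed in SDLN Tregs. Of 23 genes tested, 0 were called higher and 7 lower in skin, beside 45.3% of all genes called lower, and 7 had an unadjusted p under 0.05. In 6 of the 7 called lower every skin library was at the floor. The number called lower was 12 with limma voom, beside 53.0% of all genes, and 15 without skin Tregs B, beside 48.9%. Without skin Tregs A, 3 were called higher, beside 2.04% of all genes. In the fit of skin Tregs B alone, 7 were called higher (Traf3, Traf6, Fadd, Ripk1, Chuk, Map3k14 and Birc2) and 9 lower, with log2 fold changes of the 7 from 1.01 for Birc2 to 3.34 for Map3k14, beside 10.6% of all genes called higher and 46.0% lower. These 7 genes are named for their calls, after their values were seen. Of the 23, only Casp8 exceeded the floor in each of the 3 skin libraries. Casp8, the caspase recruited by death receptors, had 436, 181 and 159 CPM in skin libraries A to C against 233, 287 and 239 CPM in SDLN libraries A to C (log2 fold change -0.13, SE 0.59, adjusted p = 0.951 with edgeR).

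Traf1 and Traf2 encode adaptors of TNFR2, OX40 and 4-1BB. Traf1 had 2, 0 and 7 counts in skin libraries A to C against 18279, 12922 and 6041 counts in SDLN libraries A to C, and Traf2 had 0 counts in skin against 14904, 9607 and 7823 counts. Both were called lower in skin (adjusted p = 0.0249 and 0.0111 with edgeR), under 10 and 11 of 14 alternatives. Neither was called without SDLN Tregs A, B or C in turn, where adjusted p was 0.0908, 0.0896 and 0.0704 for Traf1 and 0.0629, 0.0648 and 0.0588 for Traf2. Rbck1, which encodes HOIL-1, a subunit of the linear ubiquitin chain complex, had 0, 1 and 1 counts in skin and 117 to 207 CPM in SDLN Tregs (adjusted p = 0.00544 with edgeR).

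Ikbkb, a kinase that releases NF-kB, had 0, 133 and 292 CPM in skin libraries A to C against 175, 232 and 189 CPM in SDLN libraries A to C (adjusted p = 0.977 with edgeR). In skin Tregs A, 2 of the 23 adaptor genes were over the floor beside 4 of the 10 receptors, and in skin Tregs B these numbers were 15 and 5.

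Of the 10 receptor genes, 6 lie on chromosome 4, 3 on chromosome 6 (Cd27, Ltbr and Tnfrsf1a, with 69560 and 35476 bp between neighbours) and Fas on chromosome 19. On chromosome 4, Tnfrsf4 and Tnfrsf18 have 9551 bp between them and the other 4 each lie at least 1085279 bp from the nearest of the 10. There, Tnfrsf4 and Tnfrsf18 were over the floor in all libraries, while Tnfrsf25 and Tnfrsf14 were at the floor in skin, and on chromosome 6 Cd27 had up to 883 CPM in skin where Tnfrsf1a had 0 counts.

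The genes whose level varied most like a receptor over the 6 libraries were found, for the 7 receptors with a mean of at least 10 CPM over the libraries, by the root mean square (RMS) difference of log2(CPM + 1) after centring, among 8270 genes that averaged 10 CPM or more. For Tnfrsf4 these included Map1lc3b (RMS 0.126) and Jpt1 (0.147), and for Tnfrsf18 Cox20 (0.138), Med28 (0.202) and Timm17a (0.210). For Tnfrsf9 they were Gm42659 (0.183), Esco1 (0.238) and Glyr1 (0.251). For Tnfrsf1b they were Sema4d (0.184), Caprin1 (0.221) and Glipr2 (0.297). For Cd27 they were Srsf5 (0.147), Dnajc8 (0.167) and Dbnl (0.175), for Fas Parp9 (0.356), Eif2d (0.451) and Cstf2t (0.464), and for Tnfrsf25 Gnpat (0.0894), Hibadh (0.0920) and Vps16 (0.0932). None of these 7 receptors was among the 3 nearest genes of another. Tnfrsf18 ranked 206th for Tnfrsf4 (RMS 0.646) and Tnfrsf9 ranked 1020th (RMS 1.46).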

How the data were processed

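Bulk RNA-seq gene counts of 6 sorted Treg libraries were used. Per the labels and the study's methods, the authors trimmed reads (Trimmomatic 0.36), mapped them to GRCm38 (STAR 2.5.2b) and counted exon reads per Ensembl gene (featureCounts, Subread 1.5.2). The deposited values are raw counts without normalization. The strand setting and annotation release are not given in the sources used here. GENCODE M21 named 49056 of 49315 genes. Columns are lettered A to C while titles are numbered, so letters name libraries and the main test pairs none. The study's methods do not state whether both tissues of a pool came from the same mice. The groups may thus share animals, and no label links their libraries.

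Genes kept by filterByExpr went into the robust quasi-likelihood F test of edgeR 4.0.16 (TMM scaling, tissue as the only term) in R 4.3.3, with Benjamini-Hochberg adjustment over 13572 genes and a threshold of 0.05. Log2 fold changes are skin over SDLN. The libraries are not shown to be independent beyond their pools of mice, so p-values measure the spread between these samples. CPM uses the library total and CPM per kb the merged exon length. Ratios and numbers of genes over the floor were compared with exact two-sided permutation tests. Alternatives were other normalizations, DESeq2 1.42.0, limma 3.58.1 voom, other filters, drawing down, leaving out each library and, added after the data were seen, skin Tregs B alone and the column letter as a replicate block. The receptors and gene lists were chosen with earlier results of these data known. All 10 receptors are named, as are other family genes over 10 CPM in the mean of either tissue, and, of the ligands and adaptors, those called with over 3 counts in both tissues plus up to 4 with the highest SDLN mean.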

Additional observations from a re-analysis of the deposited data

How the results depend on the processing

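The call of Tnfrsf1a held under all 14 alternatives that tested it, that of Tnfrsf14 under all 13 and that of Tnfrsf25 under 13 of 14. A minimum of 10 counts in every library left 3 receptors and 0 calls, 0 of 1 other family gene and 0 of 1 adaptor called lower, and 0 ligands called higher and 1 lower, beside 5.80% of the 1396 genes tested higher and 0.645% lower. No filter on low counts gave 0 of 9 ligands called higher and 1 lower, beside 0.309% and 25.6% of all genes. Limma voom gave 0 ligands called higher and 1 lower, 1 other family gene higher and 12 adaptors lower, beside 0.936% and 53.0% of all genes, with log2 fold changes of 0.16 for Tnfrsf4, -6.83 for Tnfrsf1b (called) and -2.61 for Cd27. DESeq2 called 1 of 11 other family genes higher, beside 2.34% of all genes. Drawing down to the smallest total left 4 of 7 other family genes called lower, beside 38.6% of all genes. Scaling by library size only gave -0.043 for Cd27. With skin Tregs B alone, the log2 fold changes were 0.077 for Tnfrsf4, 1.48 for Tnfrsf9, 0.15 for Tnfrsf18, -0.11 for Cd27 and -15.37 for Fas. That fit carries no spread between skin libraries. The causes were not tested.

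Leaving out each library in turn gave 3 to 4 receptors called lower, 0 to 1 other family genes higher and 5 to 8 lower, 0 to 1 ligands higher and 1 to 4 lower, and 0 to 3 adaptors higher and 5 to 15 lower, beside 0.564% to 2.04% of all genes higher and 40.1% to 48.9% lower. The 15 adaptors were called without skin Tregs B, the 3 higher without skin Tregs A and the 4 ligands without skin Tregs C. The log2 fold change then ranged from -0.65 to 0.26 for Tnfrsf4, from 0.76 to 1.35 for Tnfrsf9, from -0.74 to -0.13 for Tnfrsf18, from -8.82 to -1.47 for Tnfrsf1b, from -1.22 to 0.57 for Cd27 and from -3.64 to 0.26 for Fas. The lettered columns carry no replicate number of the labels, and deviations from the group means of the 2 libraries of a letter correlated at 0.022 (A), -0.019 (B) and 0.070 (C) over 13572 genes. A fit with the column letter as a replicate block, chosen after seeing the data, called 2 receptors and 7 other family genes lower, 0 ligands higher and 3 adaptors lower, and no receptor higher, with log2 fold changes of -11.77 for Tnfrsf25 (adjusted p = 0.0749 with edgeR), 1.05 for Tnfrsf9 (0.354) and -1.06 for Cd27. Over all genes the block gave 61 higher and 5633 lower calls (0.449% and 41.5%) against 141 and 6142, and the letters were not taken to pair the libraries. Skin totals of 3748669 to 11741784 counts limit what can be seen of receptors below 1 CPM.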
